A study of Saccharomyces cerevisiae with 72 samples.

Results

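The strain of Saccharomyces cerevisiae deleted for XRN1 was compared with a wild type that the labels call matched, both in the condition labelled MIN, taken as minimal medium. The comparison rests on 1 pair of two-colour arrays, 2 of the 72 arrays of the series, which were chosen by their titles. One array carried xrn1 RNA in Cy5 and the other carried it in Cy3, and both compare the same pair of RNA extracts. The series followed splicing and RNA abundance on arrays with probes for introns, splice junctions and exons. Strains deleted for RAI1, RRP6, RTT103, SKI2 or UPF1 were handled the same way, with 1 pair of arrays each, against wild type in the same medium. The titles name the wild type alike for all 6 strains, so they do not tell whether the pairs share wild-type RNA. No strain background, culture number, growth phase or mating type is given in the labels, so p-values below measure the spread between single pairs of different strains. The prp8-1 mutant, labelled 37C and YPD, over a wild type labelled 37C served here to tell intron from exon probes, and its medium differs from the MIN of the deletion strains, whose labels give no temperature. Values are log2 ratios of the deletion strain over wild type, written as the mean of both arrays unless the array is named.

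Xrn1 is the main cytoplasmic exonuclease that degrades RNA from its 5' end once the cap has been removed. Most yeast mRNAs first lose their poly(A) tail, are then decapped by Dcp2 with the help of proteins such as Edc1, Dhh1 and the Lsm1-7 ring, and are finally digested by Xrn1. Transcripts marked by nonsense-mediated decay (NMD), among them unspliced pre-mRNAs that reach the cytoplasm, end on the same route. Xrn1 also degrades nuclear-encoded tRNAs that lack modifications, in the rapid tRNA decay pathway known from yeast.

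XRN1 itself had log2 ratios of -2.78 on the Cy5 array and -3.69 on the Cy3 array, which matches the label of the strain. The other deleted genes with a probe stood at 0.92 (NAM7, which encodes Upf1), 0.20 (GCN2, deleted elsewhere in the series), 0.17 (RRP6), 0.04 (SKI2) and -0.45 (RAI1) in the xrn1 strain, and RTT103 was not analysed here. Across 1536 probes both arrays of the xrn1 pair correlated at 0.84, described over probes that share 1 pair of extracts, and the other strains' pairs correlated at 0.47 to 0.75. The 6 repeat spots of a probe had a median SD of 0.13 on the Cy5 array and 0.157 on the Cy3 array. The xrn1 pair had the widest spread of values, with an SD over probes of 0.70 against 0.37 to 0.51 in the other strains. Array medians were 0.0143 and 0.0085, so an increase or loss of all mRNA together would not be seen if the values had been centred, which no source used here states. No intensities were used here, so precision is limited by having 2 arrays.

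Several genes specific to one mating type lay far from 0 in xrn1 over wild type, and did so in all 6 deletion strains. The a-factor genes MFA2 and MFA1, made in a cells, stood at 5.05 and 3.20 in xrn1, with 5.23 to 5.78 and 4.45 to 5.40 in the other 5 strains. The alpha-factor gene MF(ALPHA)1 was at -6.39 in xrn1 and -6.22 to -4.92 in the others. STE3, the receptor for a-factor in alpha cells, was at -5.94 in xrn1 and -4.55 to -3.43 in the others, and MATALPHA1, the activator of alpha-specific genes, was at -2.61 in xrn1 and -2.72 to -2.04 in the others. MF(ALPHA)2, the second alpha-factor gene, stood at -3.79 in xrn1 and -4.04 to -3.40 in the others. MATALPHA2, the other gene of the alpha mating-type locus, went against this, at 0.41 in xrn1 and 0.46 in upf1, with -0.89 to -0.76 in the other 4 strains. The part of mating type in the other results of xrn1 over wild type was not tested, and the 6 strains share the direction of MFA1, MFA2, STE3, MATALPHA1 and both alpha-factor genes but not their sizes. In RNA of whole cultures, fewer cells of a type and less RNA per cell cannot be told apart.

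**Figure D1:**
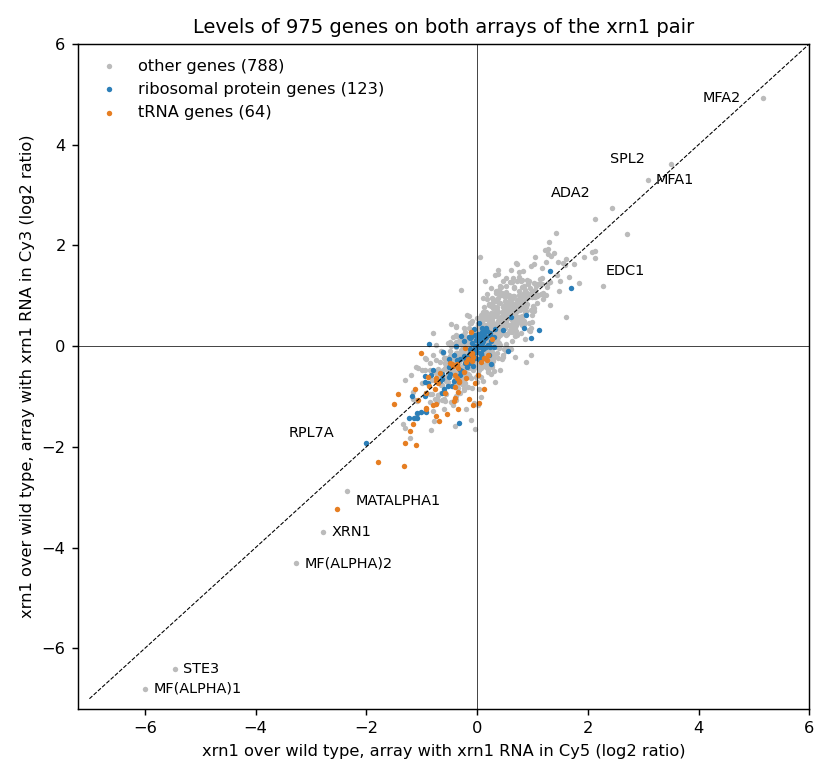
Each point is the level of 1 of 975 genes, as log2 ratio of xrn1 over wild type, on the array with xrn1 RNA in Cy5 (horizontal) and on the array with xrn1 RNA in Cy3 (vertical), and the dashed line marks equal values. The points lie along the line, XRN1 sits at -2.78 and -3.69, and MFA2 and MF(ALPHA)1 mark both ends.

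The level of a gene was its exon probe or, for genes without separate intron and junction probes, its only probe. A level was called higher or lower where the mean of both arrays was 0.5 or more from 0 and both arrays had the same sign, a description with no test because there is 1 pair. Of 975 levels, 258 (26.5%) were called higher and 160 (16.4%) lower, together 42.9%. Only 2 of the 420 levels past 0.5 had opposite signs on both arrays. The other strains had 48 (ski2) to 198 (upf1) called levels. Protein-coding genes with 1 probe, leaving out ribosomal protein genes, leaned upward, with 219 of 654 (33.5%) called higher and 76 (11.6%) called lower. For lists of such genes these shares are a nearer background than those of all levels, which include tRNA and ribosomal protein genes. The 132 intron-containing genes that do not encode ribosomal proteins had 31 called higher and 21 called lower.

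Several mRNAs of the decay machinery upstream of Xrn1 were high, and EDC1 was among the 10 highest levels of the strain. EDC1, which encodes an enhancer of decapping, had log2 ratios of 2.12 and 1.89 on the Cy5 and Cy3 arrays. DHH1, a DEAD-box helicase that promotes decapping, had 1.51 and 1.30, and DCP2, the catalytic subunit of the decapping enzyme, had 1.05 and 1.08. All 3 were high on both arrays, while their means in the other 5 strains lay between 0.25 and 0.70 for EDC1, between -0.24 and 0.19 for DHH1, and between 0.22 and 0.28 for DCP2. Of 13 measured genes of decapping and 5' to 3' decay, 6 were called higher, against 26.5% of all levels and 33.5% of protein-coding genes with 1 probe. XRN1 itself was the only 1 called lower. The other 3 called higher encode Lsm proteins of the ring that binds oligoadenylated 3' ends, LSM4 at 0.72, LSM1 at 0.61 and LSM2 at 0.61, but LSM4 (0.15 and 1.29) and LSM2 (0.18 and 1.04) differed widely between both arrays. LSM3, LSM5, LSM6 and LSM7 lay between 0.20 and 0.32. DCP1, the partner of Dcp2, stood at -0.80 and 0.27 on both arrays and PAT1, the scaffold of the decapping complex, at -0.29.

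Deadenylation factors lay on both sides of 0, with 2 of 6 called higher and 2 lower. The shares called higher and lower were 26.5% and 16.4% of all levels, and 33.5% and 11.6% of protein-coding genes with 1 probe. MOT2, the ubiquitin ligase Not4 of the Ccr4-Not complex, had 1.03 and 1.64, and CAF130, another subunit of that complex, had 0.87 and 1.11. CCR4, the main deadenylase, was lower at -0.52 and -0.76, and PAB1, the poly(A)-binding protein, was lower at -0.58 and -1.10. CDC39, the Not1 scaffold, stood at -0.45 and PAN2 at 0.17.

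Of the NMD factors, NAM7 had 0.86 and 0.97 and UPF3 had 0.65 and 1.36, while NMD2 (Upf2) stood at 0.01 and -0.55. NAM7 and UPF3 were called higher, 2 of 3 measured, against 26.5% of all levels and 33.5% of protein-coding genes with 1 probe. Among the helpers of the cytoplasmic exosome, which degrades RNA from the 3' end, SKI8 (0.68) and SKI3 (0.55) were called higher. These were 2 of 4, against the same 26.5% and 33.5%, and SKI2 (0.04) and SKI7 (0.00) lay at 0. None of 11 measured subunits and nuclear cofactors of the exosome passed 0.5 in either direction, against 42.9% of all levels. They ran from -0.41 for DIS3, its catalytic subunit, to 0.41 for CSL4. RRP4, RRP42, SKI6, RRP43 and MTR3 lay between -0.32 and -0.03, and RRP46, RRP6, RRP45 and RRP40 between 0.07 and 0.37.

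Nuclear decay and termination factors had 2 of 9 called higher and 1 lower, shares of 22.2% and 11.1% that lie near the 26.5% and 16.4% of all levels. NRD1, which recruits the exosome to short transcripts, stood at 0.63, below the 2.13 of rrp6 and the 1.20 of rtt103. DBR1, the enzyme that opens intron lariats, was at 0.57, and MTR4, the helicase of the nuclear exosome, was at -0.59 with arrays at -0.92 and -0.25. RAT1, the nuclear relative of Xrn1, stood at -0.05. AIR1, AIR2, NAB3 and SEN1 lay between -0.39 and 0.43. Next to XRN1 on chromosome VII, BUD13 stood at 0.56, NUP49 at 0.47 and ROK1 at -0.77, so the neighbours did not shift one way.

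**Figure D2:**
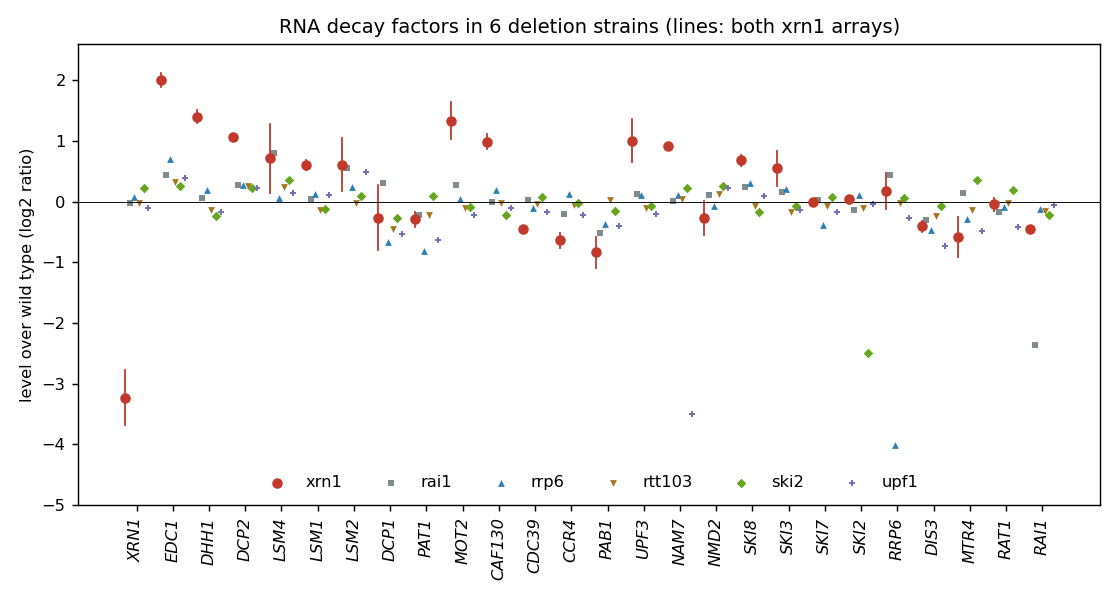
Levels (log2 ratio over wild type) of 26 RNA decay genes, with xrn1 as large red circles joined to the values of both its arrays by a line, and the other 5 strains as small symbols. EDC1, DHH1, DCP2, MOT2, CAF130, UPF3 and NAM7 lie above every other strain in xrn1, and each deleted gene is lowest in its own strain.

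Chaperone and stress genes were higher throughout. All 9 of 20 listed that were measured were called higher, against 26.5% of all levels and 33.5% of protein-coding genes with 1 probe. Their median was 0.82 in xrn1, 0.64 in upf1 and 0.12 to 0.35 in the other 4 strains. HSP104, the disaggregase, had 1.74 and 1.64 on the Cy5 and Cy3 arrays, and SSA3, a stress-induced Hsp70, had 1.60 and 1.73. The lowest were SSA1 at 0.55 and SSA2 at 0.63, both constitutive Hsp70 genes.

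Messenger RNAs for splicing factors leaned upward. Of 80 measured genes, 38 (47.5%) were called higher and 7 (8.75%) lower, against 26.5% and 16.4% of all levels, with a median of 0.47, against 0.07 over all levels of xrn1 and -0.0049 to 0.16 for the same list in the other strains. Protein-coding genes with 1 probe, without ribosomal protein genes, had 33.5% called higher and 11.6% lower, with a median of 0.21. The array medians of the splicing factor list were 0.27 and 0.59. LSM8, the subunit that marks the nuclear Lsm ring on U6 snRNA, stood at 1.68 and CWC15, a protein of the active spliceosome, at 1.56. STO1, the large subunit of the nuclear cap-binding complex, and PRP43, the helicase that takes spent spliceosomes apart, both stood at -0.88.

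Genes of ribosome biogenesis leaned downward. Of 35 measured, 18 were called lower and 17 were not called, against 16.4% of all levels for lower calls, none was called higher, and 33 had a mean below 0. Their median was -0.51 in xrn1, the same as in upf1 at -0.51, with -0.28 to -0.01 in the other 4 strains. DBP2, a DEAD-box helicase, stood at -1.52 and HAS1, another helicase of ribosome assembly, at -1.09, while DBP6 (0.23) and DBP8 (0.08) were the highest.

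Ribosomal protein genes centred on 0 as a class, with a median of -0.02 over 123 levels, while individual members lay far from it. Lower calls numbered 26 (21.1%), against 16.4% of all levels, and higher calls 7 (5.69%), against 26.5% of all levels. All 26 lower calls fell among the 96 ribosomal protein genes with intron, exon and junction probes, 27.1% of them. None fell among those with 1 probe. RPL7A had -2.00 and -1.92 on both arrays and RPS19A had -1.22 and -1.44. RPS14B had 1.70 and 1.16 and RPL22B had 1.32 and 1.49. Near-identical copies of these genes can share signal at a probe, so a value may belong in part to the paralog.

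Transfer RNAs leaned downward. Of 40 nuclear-encoded tRNA genes, 23 (57.5%) were called lower and none higher, against 16.4% and 26.5% of all levels, and 37 had a mean below 0. Their median was -0.62 in xrn1, -0.40 in rai1 and -0.10 to 0.12 in the other 4 strains, with -0.40 on the Cy5 array and -0.87 on the Cy3 array. YNCB0018W had -2.52 and -3.24, although it was also low in every other strain, from -2.44 to -1.26. YNCD0013C had -1.79 and -2.30, with -1.30 to -0.09 in the others, TRR4, an arginine tRNA, stood at -1.85 and SUP11, a tyrosine tRNA, at -1.61. The highest were YNCC0008W at 0.20 and YNCB0011C at 0.09. All 24 mitochondrial tRNA genes had a mean below 0, and 14 (58.3%) were called lower, against 16.4% of all levels. Their median was -0.59 in xrn1, -0.35 in rrp6 and -0.16 to 0.06 in the other 4 strains. They ran from tS(UGA)Q2 at -1.33 and tQ(UUG)Q at -1.19 to tM(CAU)Q1 at -0.13 and tI(GAU)Q at -0.11. How well the cDNA labelling copies tRNAs is not given in the sources used here, and its part in these values was not tested.

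**Figure D3:**
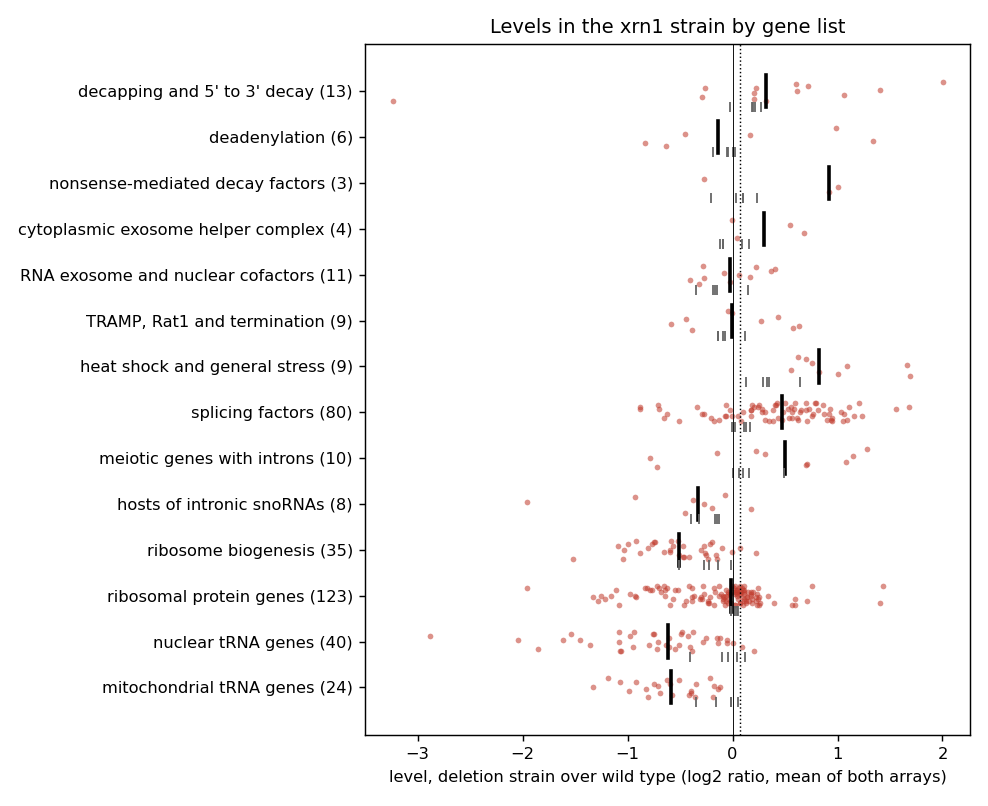
Each red point is the mean level of 1 gene in xrn1 over wild type (log2 ratio), by gene list with the number measured in brackets; the thick black bar is the list's median in xrn1, the small grey ticks are its medians in the other 5 strains, and the dotted line is the median of all 975 levels at 0.07. Stress genes lie wholly to the right of 0.5, ribosome biogenesis and both tRNA classes mostly to the left of 0, and ribosomal protein genes centre on 0.

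Apart from mating-type genes, the highest level was SPL2, a regulator of low-affinity phosphate uptake, with 3.50 and 3.61 in xrn1. It was high in every other strain too, from 1.65 to 3.75. ADA2, a coactivator subunit of histone acetyltransferase complexes, had 2.44 and 2.74 in xrn1 and -0.08 to 0.54 in the others. HOS2, a histone deacetylase, had 2.13 and 2.53 in xrn1 and -0.14 to 0.34 in the others. GAC1, a regulatory subunit of the Glc7 phosphatase that promotes glycogen storage, stood at 2.48 in xrn1 and 0.76 to 1.36 in the others. CIN5, a transcription factor of the Yap family, stood at 1.98 in xrn1 and 1.86 in rai1, and CTL1, an RNA triphosphatase, at 1.94 in xrn1 and 2.36 in upf1. GIS2, a zinc-knuckle RNA-binding protein, stood at 1.85 in xrn1 and 1.21 in ski2. Of 4 measured genes of amino acid synthesis, HIS5 stood at 0.75, HIS4 at -0.10, HIS2 at -0.31 and GCN4, their activator, at -0.58.

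For 228 genes with an intron the array gave an intron, an exon and a junction probe. The kinds were assigned from the spacing of probes on the slide and from which position rose in prp8-1, a strain with a defective core splicing factor that was compared with wild type at 37 C, and 217 of the 228 genes followed their class. The intron minus exon index is the log2 ratio of the intron probe less that of the exon probe. For the junction minus exon index the junction probe takes the place of the intron probe. The exon probe reads spliced and unspliced RNA together, so the junction minus exon index compares spliced RNA with the sum of both. The intron probe can read introns already cut out as well as unspliced RNA, and these were not told apart here.

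The median indices lay near 0. The median intron minus exon index was 0.00 in xrn1, with -0.09 and 0.13 on the Cy5 and Cy3 arrays, and -0.14 to 0.02 in the other strains. It was -0.17 over 96 ribosomal protein genes and 0.06 over 132 other genes, and the other strains ran from -0.31 to 0.05 and from -0.04 to 0.08. The median junction minus exon index was -0.09, with -0.02 and -0.10 on both arrays, and -0.04 to 0.04 in the other strains. Single genes moved far from these medians. Of 228 intron minus exon indices, 45 (19.7%) were called higher and 51 (22.4%) lower, together 42.1%, and of the junction minus exon indices 26 (11.4%) were called higher and 39 (17.1%) lower, together 28.5%.

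YRA1 carried the most marked change. It encodes an mRNA export adapter that limits its own expression through inefficient splicing of its intron, and its pre-mRNA is known to leave the nucleus and decay from the 5' end. Its intron probe had 4.00 and 2.63 on the Cy5 and Cy3 arrays, its exon probe 2.28 and 1.19, and its junction probe -0.45 and -0.28. The intron and exon were thus high on both arrays while the junction was not. In the other strains the junction minus exon index lay between -0.07 and 0.22, against -2.09 in xrn1. The intron minus exon index was 1.58 in xrn1 and -0.84 to 0.19 in the others. In upf1 the intron, exon and junction probes of YRA1 stood at -0.40, -0.06 and -0.08.

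RPL28, whose pre-mRNA is a classic substrate of NMD, had the highest intron minus exon index, with 2.82 and 2.37 on both arrays. Its intron probe was at 1.79 in xrn1 and 1.96 in upf1, and its exon probe at -0.81 in xrn1 and 0.03 in upf1. The junction probe of RPL28 was at 0.22 in xrn1 and 0.07 in upf1. Its junction minus exon index in xrn1, 1.03, was thus also called higher. RPL22B had exon probe values of 1.32 and 1.49 and junction probe values of -0.31 and -0.54, and its intron and exon probes averaged 2.61 and 1.40 in xrn1 and 2.07 and 1.28 in upf1. NHP6B, a chromatin protein, had an intron probe at 1.39 in xrn1 and 1.58 in upf1 with its exon near 0 in both. IWR1, which brings RNA polymerase II into the nucleus, had an intron probe at 1.40 in xrn1 and 2.73 in upf1.

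A higher intron probe (10.5% of genes) together with a lower junction minus exon index (17.1% of genes) was found in 9 of 228 genes, a rule set after the values were seen. They were YRA1, RPL22B, REC107, MTR2, CIN2, SPT14, KIN28, IWR1 and GCR1. REC107, a meiotic recombination gene, had intron, exon and junction probes at 1.78, 1.28 and -0.30 in xrn1 and 2.28, 2.15 and -0.01 in upf1. SPT14, of GPI anchor synthesis, had 1.21, 0.76 and -0.24 in xrn1 and 0.68, 0.53 and 0.09 in upf1. CIN2, a tubulin folding factor, had 0.79, 0.58 and -0.55 in xrn1 and 0.98, 0.40 and -0.10 in upf1. MTR2, an mRNA export receptor subunit, had 0.69, 1.26 and -0.18 in xrn1, but its probes did not follow their class in prp8-1 and their kinds may be wrong.

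**Figure D4:**
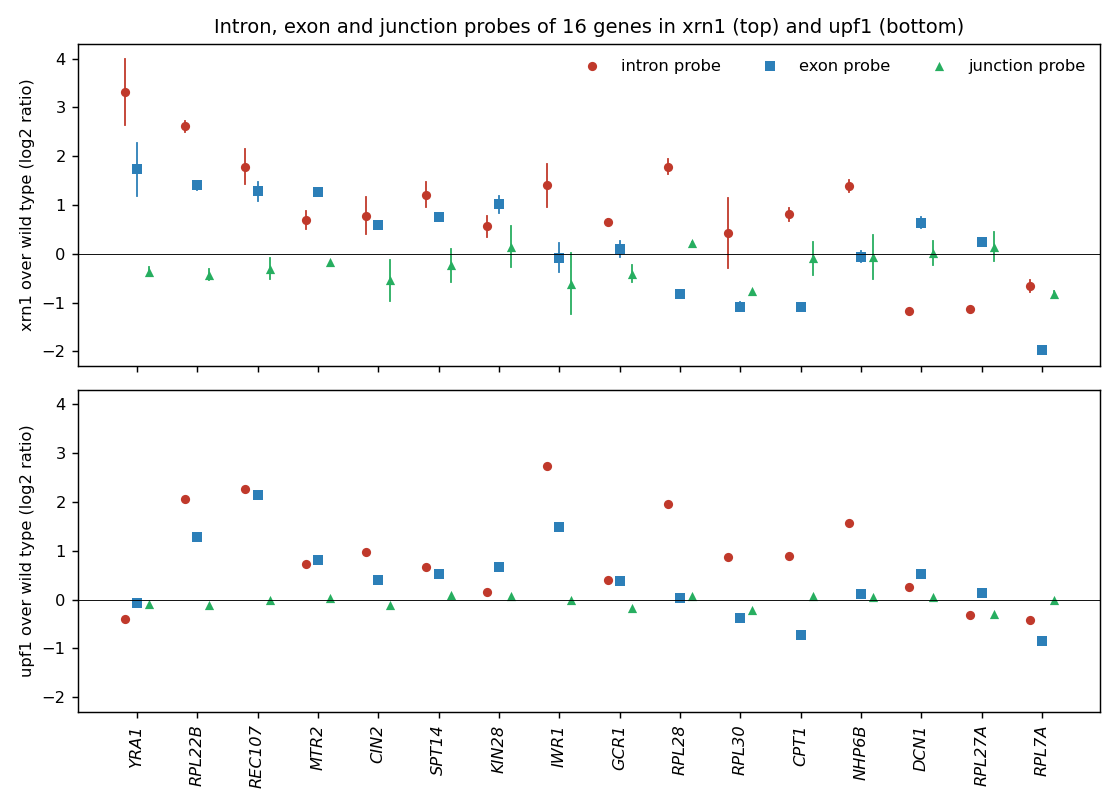
Log2 ratios over wild type of the intron (red circles), exon (blue squares) and junction (green triangles) probes of 16 genes in xrn1 (top, lines join both arrays) and in upf1 (bottom, mean of both arrays). The first 9 genes were picked for a higher intron probe and a lower junction minus exon index in xrn1. YRA1 has its intron at 3.32 in xrn1, and its intron, exon and junction at -0.40, -0.06 and -0.08 in upf1.

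Several meiotic genes with introns, which growing cells keep low, had a lower junction share in xrn1. Of 9 with 3 probes, 6 had a junction minus exon index called lower, against 17.1% of all genes, and the median was -1.20 in xrn1, -0.76 in upf1 and -0.04 to 0.16 in the other 4 strains. The 6 were MEI4 (-1.67), REC107 (-1.59), HFM1 (-1.24), SPO1 (-1.23), REC114 (-1.20) and HOP2 (-0.83). AMA1 (0.51) was called higher, against 11.4% of all genes, and DMC1 (0.99) and PCH2 (0.18) had means above 0 with opposite signs on both arrays. The intron minus exon index of the 9 was called lower in 4 (44.4%) and higher in 1 (11.1%), against 22.4% and 19.7% of all genes. Its median was -0.24 in xrn1. In MEI4 and SPO1 the exon probe, at 1.08 and 0.70, lay above the intron probe, at 0.36 and -0.03. REC107 went the other way, with its intron at 1.78 and its exon at 1.28. The probes of HFM1, HOP2 and AMA1 did not follow their class in prp8-1, so their kinds may be wrong. Their levels had a median of 0.50 in xrn1 and 0.49 in upf1, with REC107 at 1.28 and HFM1 at 1.15 the highest and AMA1 at -0.79 and DMC1 at -0.72 the lowest. AMA1 and DMC1 differed widely between both arrays, with -0.11 and -1.46 and with -0.19 and -1.25.

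Among genes whose product acts on its own intron, 4 of 8 had an intron minus exon index called higher, against 19.7% of all genes, YRA1, RPL30 at 1.51, RPL22B at 1.21 and RPS9A at 0.69. RPL30 had 0.88 and 2.13 on both arrays, with its exon probe at -1.08. Its intron probe had opposite signs, -0.30 on the Cy5 array and 1.14 on the Cy3 array. The intron minus exon index of RPL30 was 1.17 in rai1 and 1.26 in upf1. RPS14B went the other way at -0.57, with its exon at 1.43. DBP2 was low at all 3 probes, at -1.08, -1.52 and -1.34 for intron, exon and junction, although its probes did not follow their class and the kinds may be exchanged. Hosts of intronic snoRNAs had 2 of 8 intron minus exon indices called higher and 2 lower, near the 19.7% and 22.4% of all genes, with a median of -0.44 in xrn1 against 1.28 in rrp6. Their levels had a median of -0.32, with RPL7A at -1.96 and RPS22B at -0.92 the lowest and RPL7B at 0.17 and ASC1 at -0.07 the highest. Only 3 of 9 listed natural NMD targets were probed, PPR1 at 0.37, EST2 at -0.01 and RPL28 at -0.81.

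In several genes a high index went with a low exon probe. CPT1, a phospholipid enzyme, had 1.91 with its exon at -1.10, TUB1, alpha-tubulin, had 1.31 with its exon at -0.85, and RPL7A had 1.30 with its exon at -1.96 and its intron at -0.66. HNT2, a nucleotide hydrolase, had 1.35 with its intron at 1.13. In the other strains the index ran from 0.30 (rai1) to 1.62 (upf1) for CPT1 and from 0.33 (ski2) to 1.34 (rai1) for HNT2. The lowest indices belonged to DCN1 (-1.81), which promotes cullin neddylation, NOG2 (-1.62, kind doubtful), MRPL44 (-1.48), RPL27A (-1.35), RPL25 (-1.21) and RPS10A (-1.14). DCN1 had its intron probe at -1.19 and -1.16 and its exon probe at 0.53 and 0.75. The index of DCN1 in the other strains ran from -0.53 to 0.50. At the junction, YOS1 (1.37, arrays at 0.28 and 2.46), RPS6A (1.35), RPL7A (1.15), MUD1 (1.10), MPT5 (1.07) and NSP1 (1.03) had the highest index, and MRK1, a protein kinase with arrays at -0.89 and -1.84, stood among the 6 lowest with YRA1, RPL22B, MEI4, REC107 and MTR2. In MUD1, a protein of the U1 snRNP, and MPT5, a Puf-family repressor of mRNAs, the junction probe itself was at 1.41 and 1.38 with exons at 0.31 in both. The junction minus exon index in the other strains ran from 0.10 to 0.58 for MUD1 and from -0.06 to 0.46 for MPT5. It ran from 0.11 to 1.32 (rrp6) for RPL7A and from -1.07 (rrp6) to 0.01 for MRK1.

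The xrn1 pair was then compared with the other 5 deletion pairs, a test that leaves out what all 6 strains share against wild type. The lone xrn1 pair was assumed to vary like the other 5, with 4 residual degrees of freedom. By limma with Benjamini-Hochberg adjustment, 84 of 975 levels (8.62%) passed at an adjusted p under 0.05, 61 (6.26%) higher and 23 (2.36%) lower in xrn1. The highest differences were those of ADA2 (2.48, SE 0.241, adjusted p = 0.0101), HOS2 (2.19, SE 0.216, adjusted p = 0.0101), MTR10, a nuclear import receptor (1.68, adjusted p = 0.0248), YRA1 (1.66, adjusted p = 0.0248), ASH1, a repressor whose mRNA is carried to the bud (1.61, adjusted p = 0.0401), EDC1 (1.58, adjusted p = 0.0165), YHP1, a cell-cycle repressor (1.47, adjusted p = 0.0449), and DHH1 (1.46, adjusted p = 0.0228). XRN1 had the lowest at -3.27 (SE 0.155, adjusted p = 0.000279). After it came STE3 (-1.99, adjusted p = 0.0357), RPL29 (-1.22, adjusted p = 0.0393), the tRNA genes YNCG0030C (-1.21, adjusted p = 0.0449), TGA1 (-1.10, adjusted p = 0.0248) and tS(UGA)Q2 (-1.10, adjusted p = 0.0449), PRP8, the core of the spliceosome (-0.92, adjusted p = 0.0296), and SUM1, a repressor of meiotic genes (-0.85, adjusted p = 0.0392).

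Of the decay factors, EDC1, DHH1, DCP2 (0.81), MOT2 (1.35), CAF130 (1.02) and UPF3 (1.03) rose over the other strains, the last 4 each at an adjusted p of 0.0248. They were 3 of 13 genes of decapping and 5' to 3' decay, 2 of 6 of deadenylation and 1 of 3 NMD factors, against 6.26% of all levels. None of 4 cytoplasmic exosome helpers, 11 exosome genes and 9 nuclear decay and termination factors passed. Each of these calls was lost in 3 of 10 alternatives. NAM7, at 0.92 against 0.01 to 0.23 in the strains that keep it, did not pass. The upf1 strain, which lacks NAM7, enters this comparison at -3.50. Its value lowers the mean of the other strains and also widens their spread. The result for NAM7 without upf1 is not given here, so this test does not settle whether NAM7 differs from the strains that keep it. The list of splicing factors had 7 of 80 passing higher and 2 lower, shares of 8.75% and 2.5% that lie near the 6.26% and 2.36% of all levels. Ribosomal protein genes had 1 of 123 passing higher and 6 lower, nuclear tRNA genes 3 of 40 lower, and mitochondrial tRNA genes 2 of 24 lower. HSP104 (1.08, adjusted p = 0.0248) was the only one of 9 stress genes to pass, and no gene of ribosome biogenesis passed. These counts depend on the comparison strains: without the rtt103 pair 3 levels passed, without ski2 4, without rrp6 53 and without upf1 156. With every array scaled to the same spread, a setting chosen after seeing that the xrn1 arrays spread widest, XRN1 alone passed (adjusted p = 0.0033).

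**Figure D5:**
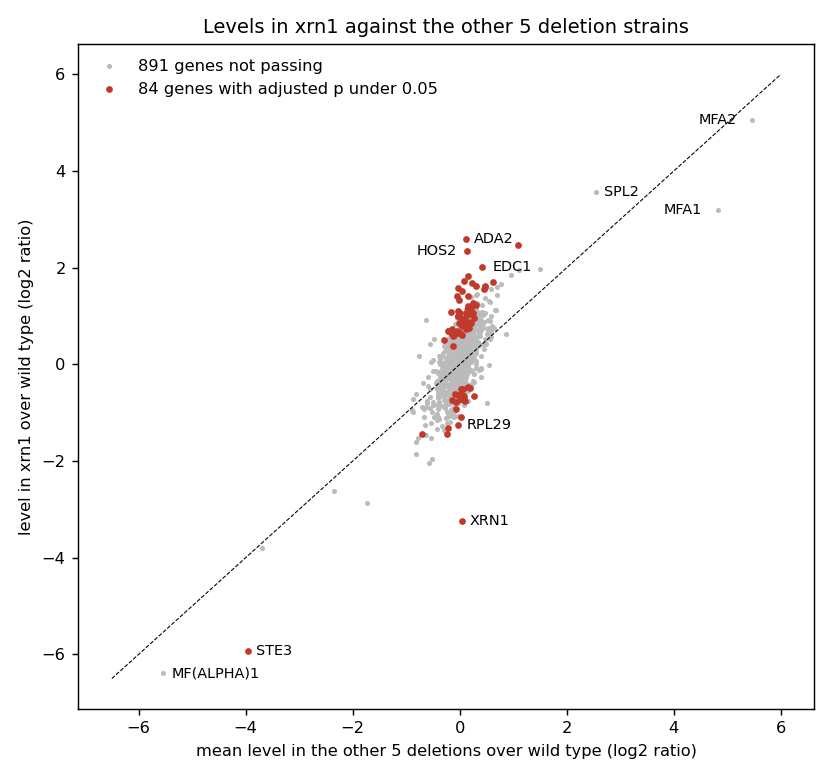
Each point is 1 of 975 genes, with its level in xrn1 (vertical) against its mean level in the other 5 deletion strains (horizontal), both as log2 ratio over wild type; red marks the 84 genes with an adjusted p under 0.05 by limma. MFA1, MFA2, STE3 and MF(ALPHA)1 lie far from 0 on both axes, while ADA2, HOS2, EDC1 and XRN1 lie far from 0 in xrn1 alone.

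For the splicing indices the same test passed few genes. YRA1 had a junction minus exon index of -2.09 in xrn1 against 0.01 ± 0.12 (SD, n = 5) in the others by limma, a difference of -2.11 (SE 0.148, adjusted p = 0.000781), and it passed in all 11 alternatives tried. BOS1, a secretory v-SNARE (-0.89, adjusted p = 0.042), RPS30A (-0.77, adjusted p = 0.0302) and RIM1, which binds mitochondrial DNA (0.69, adjusted p = 0.042), also passed, 4 of 228 genes (1.75%, of which 1.32% lower and 0.439% higher), with 65 at an unadjusted p under 0.05. RPS30A lay at -0.75 and -0.24 on both xrn1 arrays. Without rrp6, rtt103 or ski2 only YRA1 passed. Without upf1 19 junction indices passed, 17 of them lower in xrn1, and these included REC107 (-1.41, adjusted p = 0.0075), MTR2 (-1.23, adjusted p = 0.0075), REC114 (-1.11, adjusted p = 0.0075), RPL22B (-1.96, adjusted p = 0.0179), SPO1 (-1.64, adjusted p = 0.0179), HFM1 (-1.371, adjusted p = 0.0179) and CIN2 (-1.07, adjusted p = 0.0421). The index of these genes in upf1 itself ran from -2.16 for REC107 to -0.50 for CIN2, and with upf1 in the fit none of the 7, which were named after their values were seen, passed. None of 228 intron minus exon indices (0%) passed, while 44 had an unadjusted p under 0.05, and the lowest adjusted p was 0.0736, shared by MRPL44, NOG2, RPL27A and YRA1. Leaving out 1 strain let single genes pass, NOG2 without rrp6, YRA1 without ski2, and MRPL44 and RPL28 without upf1.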

How the data were processed

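Total RNA was extracted with acid phenol and copied into cDNA with aminoallyl-dUTP, per the labels' protocols. The authors deposited 1 log ratio per spot, taken as log2; no source used here gives their base, background correction, normalization or direction. Both xrn1 arrays correlate positively and XRN1 lies far below 0, so no sign was turned and ratios run mutant over wild type. Of 9216 spots, 6 per probe were averaged. The platform annotation named 1457 of 1536 probes (982 genes, all matched to RefSeq R64). Kinds of probe were assigned for 228 genes from spacing and prp8-1; 747 genes had 1 probe; 7 with unknown kinds gave no level. Levels and indices were fitted with limma 3.58.1 (R 4.3.3; lmFit, eBayes), with p-values adjusted over all features of a measure. Tested on simulated data, the level fit (975 genes) found 74.5% of changes of 1 and 97.9% of changes of 2 on the log2 scale. It also called 8 of 780 unchanged genes. The fit assumes that xrn1 varies like the other strains, but the xrn1 arrays spread widest. How these shares change with a wider spread in xrn1 was not tested, so they cannot vouch for the calls made here. Alternatives were other spot summaries, centring, spot minimums, call sizes, a robust prior, single arrays, clear prp8-1 genes (gap over 0.6) and leaving out each strain. Genes were named by rank (10 highest and lowest levels, 10 and 6 intron minus exon, 6 and 6 junction minus exon, 8 each way past the test) and by list. The genes, lists and tests were chosen with earlier results of these data known. No snoRNA or snRNA gene and no auxotrophic marker gene was measured.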

Additional observations from a re-analysis of the deposited data

Results flagged for a closer look

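The following named values differed between xrn1 and the other 5 deletion strains by the limma test of the difference itself (adjusted p under 0.05), as xrn1 minus the mean of the others on the log2 scale. Levels higher in xrn1 were ADA2 (2.48), HOS2 (2.19), MTR10 (1.68), YRA1 (1.66), ASH1 (1.61), EDC1 (1.58), YHP1 (1.47), DHH1 (1.46), LSM8 (1.45), GAC1 (1.40), MOT2 (1.35), CWC15 (1.10), HSP104 (1.08), UPF3 (1.03), CAF130 (1.02) and DCP2 (0.81). Levels lower in xrn1 were XRN1 (-3.27), STE3 (-1.99), RPL29 (-1.22), YNCG0030C (-1.21), TGA1 (-1.10), tS(UGA)Q2 (-1.10), PRP8 (-0.92) and SUM1 (-0.85). Among junction minus exon indices, YRA1 (-2.11), BOS1 (-0.89) and RPS30A (-0.77) were lower in xrn1 and RIM1 (0.69) was higher. XRN1 and the YRA1 junction index passed in every alternative run for them, 10 and 11. ADA2 and HOS2 passed in 9 of 10, failing with every array scaled to the same spread, where their adjusted p was 0.106, and the remaining 24 named calls were each lost or turned in at least 2 alternatives.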

How the results depend on the processing

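No paired analysis was possible because the labels give the strains no replicate numbers. Called levels numbered 418 at the threshold of 0.5, 117 at 1 and 274 with arrays scaled to the same spread, a setting added after seeing the data; 376 and 444 were past 0.5 on the Cy5 and Cy3 arrays alone. Called intron minus exon indices numbered 96, 25 at 1 and 58 when scaled. Called junction minus exon indices numbered 65, 103 at 0.3 and 19 at 1. Levels passing against the other strains numbered 84, 1 when scaled, and 3 to 156 leaving out 1 strain. Passing intron minus exon indices numbered 0, and 0 to 2 leaving out 1 strain. Passing junction minus exon indices numbered 4, 10 with the median over spots, 2 among genes clear in prp8-1, 1 when scaled, and 1 to 19 leaving out 1 strain. The median intron minus exon index of ribosomal protein genes was -0.17, and -0.124 and -0.0686 on the Cy5 and Cy3 arrays alone. The median junction minus exon index was -0.09, and -0.0209 on the Cy5 array alone; over genes other than ribosomal protein genes it was -0.10, and -0.0099 on the Cy5 array alone. The level difference of STE3 turned to 0.0179 when scaled (adjusted p = 0.989). The cause of these changes was not tested. In the other planned settings counts stayed within 1.5 times of the main count and medians moved by less than the SD of both arrays.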

Other observations

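NDT80, the activator of middle meiotic genes, had 2 probes of unknown kind, and both were high in xrn1 over wild type, with 1.65 and 1.37 for one and 1.17 and 1.33 for the other on the Cy5 and Cy3 arrays. HAC1, the stress regulator whose intron is removed outside the spliceosome, had 3 probes of unknown kind at 0.63, 0.09 and -0.44, so they did not move together. RPL14A had probes at 0.21, -0.51 and -0.63, and both probes of RPL26B were low at -0.84 and -0.53. KSS1, a kinase of the filamentous growth pathway, stood at 1.11 in xrn1 and 0.91 in upf1, with -0.05 to 0.57 in the other 4 strains. SST2, which dampens the pheromone response, stood at -0.90 in xrn1 and -0.94 to -0.25 in the others. These genes were chosen after their values were seen.

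Of 79 probes with no gene name here, 11 were called higher and 29 lower in xrn1, with a median of -0.17, whereas 307 of the 1457 named probes were higher and 253 lower. By chromosome, the medians of the levels lay between -0.14 (chromosome III) and 0.30 (chromosome XIV) for the nuclear genome, and at -0.59 over the 24 mitochondrial genes measured, all of them tRNA genes.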
